A study of Mus musculus with 30 samples.

Results

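Blood vessels enter these data through 10 genes of the endothelial cells that line them, here called the vessel genes: *Pecam1*, *Cdh5*, *Emcn*, *Plvap*, *Vwf*, *Kdr*, *Flt1*, *Tek*, *Tie1* and *Eng*. They were chosen by symbol, for endothelial identity or as receptors of vascular endothelial growth factor (VEGF) or the angiopoietins, from a table of 21841 genes. All 10 were in the table and all 10 passed the filter on low counts, as did 13663 genes in all. The libraries were made from total RNA of spontaneous mammary tumours of mice of the FVB/N-Tg(MMTV-PyVT)634Mul/J strain, in which the mouse mammary tumour virus promoter drives the polyoma middle T oncogene in mammary epithelium. Every mouse carried this transgene, and the labels give the genotype as WT and no age. There were 6 groups of 5 mice: vehicle, KCL-HO-1i (an inhibitor of heme oxygenase-1, the enzyme that breaks down heme), 5-FU (5-fluorouracil), KCL-HO-1i/5-FU, gemcitabine and KCL-HO-1i/gemcitabine. Per the labels, gemcitabine was given at 64 mg/kg per 7 days, 5-FU at 40 mg/kg per 4 days and KCL-HO-1i daily at 25 µmol/kg, all by intraperitoneal injection, and tumours were taken after 72 hours. A lower gemcitabine dose and a shorter treatment stand in the text of the study, and this difference could not be settled. The question put to the data was whether these treatments, alone or combined, changed the level of the vessel genes in the tumour.

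Endothelial cells hold on to each other through VE-cadherin (the product of *Cdh5*) and PECAM (*Pecam1*), and sense growth signals through receptor tyrosine kinases. VEGF made by tumour cells and macrophages acts mainly through *Kdr* and drives sprouting, whereas *Flt1* binds VEGF tightly but signals weakly and is also made as a soluble decoy. Angiopoietins act through *Tek* (TIE2) and set vessel stability, with *Tie1* as its partner receptor. Mammary tumours of this model are vascular, and part of their macrophages lie along the vessels.

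The total count per library was 10067577 to 13622264, and the 10 vessel genes together took from 0.0075% to 0.066% of it. Levels are given as CPM, counts scaled to a common effective library size, unless stated otherwise. A group of 3 libraries stood apart from the other 27 in the vessel genes, 1 in each group given KCL-HO-1i: KCL-HO-1i replicate 4, KCL-HO-1i/5-FU replicate 3 and KCL-HO-1i/gemcitabine replicate 2. Their summed CPM of the 10 genes was 420.1, 569 and 696, against 78.8 to 246 (median 127) in the other 27. Results that rest on these 3 libraries are therefore given with and without them. The 3 were picked after their vessel gene levels were seen, and all received KCL-HO-1i, so that leaving them out lowers the vessel gene values of these groups by construction. The values without them show how far a result rests on them and are no independent test. The library names hold a number that the labels do not explain, with 13 different numbers over the 30 libraries. The number 70 is shared by KCL-HO-1i/5-FU replicate 3, KCL-HO-1i/gemcitabine replicate 2 and also KCL-HO-1i replicates 2 and 3, in which the summed CPM was 158 and 188. All libraries with the number 70 received KCL-HO-1i. KCL-HO-1i replicate 4 has the number 69, as does 5-FU replicate 4, in which the summed CPM was 87.3.

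The label of the set was checked against genes outside it. The 8 other genes whose level followed the mean of the 10 standardised vessel genes most closely across the 30 libraries were *Rasip1*, *Cyyr1*, *Ptprb*, *Adgrl4*, *Cd93*, *Arhgef15*, *Esam* and *Mmrn2*, with Pearson r from 0.93 to 0.96. Most of these are known from endothelium, for example *Esam*, a junction molecule, *Mmrn2*, a matrix protein of vessels, and *Ptprb*, the phosphatase that acts on *Tek*. Over the other 27 libraries the r of these genes was 0.79 to 0.90. These genes were picked for their likeness, so the values are a description.

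The genes lie on 7 chromosomes of the mm10 build, with positions and exons from the GENCODE M21 annotation of that build. *Eng* lies at chr2:32646595-32682669, *Emcn* at chr3:137341067-137432185, *Tek* at chr4:94739289-94874976 and *Tie1* at chr4:118471191-118490061. *Kdr* lies at chr5:75932827-75978458, *Flt1* at chr5:147561604-147726011 and *Vwf* at chr6:125546774-125686679. *Plvap* lies at chr8:71497765-71511752, *Cdh5* at chr8:104101625-104144511 and *Pecam1* at chr11:106654217-106750628. Because longer transcripts give more reads, levels of different genes were compared per kilobase of exon. In vehicle tumours *Plvap* was highest, at 10.3 ± 2.62 CPM per kilobase (SD, n = 5), followed by *Pecam1* at 6.08 ± 1.33, *Cdh5* at 4.69 ± 0.58 and *Eng* at 4.24 ± 0.98. *Kdr* (2.23 ± 0.37), *Emcn* (1.95 ± 0.42) and *Tie1* (1.86 ± 0.48) came next and overlapped one another. *Flt1* stood at 1.24 ± 0.35, *Tek* at 0.78 ± 0.40 and *Vwf* at 0.21 ± 0.17 CPM per kilobase. *Vwf*, the clotting glycoprotein stored in endothelial granules, was thus the scarcest of the 10, with 0.669 CPM in the lowest vehicle library. Over all groups its lowest count was 2, in a gemcitabine library. Neighbours in this order overlapped in their ranges, other than *Eng* and *Kdr*.

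Promoters are shown because the vessel genes varied together from tumour to tumour, as described below, and because ETS factors, which bind the core letters GGAA, are the best known regulators of endothelial genes. Promoter sequence was at hand for 6 of the 10 genes (*Kdr*, *Flt1*, *Tek*, *Tie1*, *Eng* and *Emcn*) from RefSeq on GRCm38.p6, the assembly called mm10. The stretch of 200 bases that ends 11 bases before the RefSeq start is printed 5′ to 3′ on the strand of the gene for 4 receptors, with GGAA, or TTCC for its opposite strand, in capitals.
Kdr, chr5:75978466-75978665, minus strand: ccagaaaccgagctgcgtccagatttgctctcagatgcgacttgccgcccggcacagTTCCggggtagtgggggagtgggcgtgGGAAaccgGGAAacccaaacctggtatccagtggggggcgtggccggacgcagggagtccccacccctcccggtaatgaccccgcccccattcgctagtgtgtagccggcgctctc
Flt1, chr5:147726022-147726221, minus strand: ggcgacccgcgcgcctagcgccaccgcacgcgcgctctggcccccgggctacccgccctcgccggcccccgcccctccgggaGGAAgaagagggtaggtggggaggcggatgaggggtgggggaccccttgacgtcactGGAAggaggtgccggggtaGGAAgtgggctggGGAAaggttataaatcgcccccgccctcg
Tek, chr4:94739079-94739278, plus strand: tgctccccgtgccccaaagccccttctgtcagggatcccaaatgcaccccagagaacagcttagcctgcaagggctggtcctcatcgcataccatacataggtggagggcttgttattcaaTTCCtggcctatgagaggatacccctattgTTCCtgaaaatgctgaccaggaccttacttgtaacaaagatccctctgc
Eng, chr2:32646385-32646584, plus strand: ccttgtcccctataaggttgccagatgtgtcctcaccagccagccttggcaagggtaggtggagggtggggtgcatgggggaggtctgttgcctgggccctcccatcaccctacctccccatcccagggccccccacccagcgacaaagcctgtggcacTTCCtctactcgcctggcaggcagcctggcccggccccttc
The stretch held GGAA on either strand 3 times in *Kdr*, 4 times in *Flt1*, 2 times in *Tek* and 1 time in *Eng*, and it was present in all 6 genes. It was also present in 88.9% of all 32851 promoter stretches of this length, so its presence does not set the vessel genes apart. The longer form CAGGAA, which contains GGAA, was found in *Tek* (2 times), *Emcn* (2 times) and *Tie1* (1 time), against 21.3% of all stretches. AGGAAG, which overlaps it, was found in *Flt1* (2 times), *Emcn* (2 times) and *Eng* (1 time), against 24.6% of all stretches. The GC content of the stretch ranged from 42.5% in *Emcn* to 73% in *Flt1*. The *Tie1* stretch, chr4:118489860-118490059 on the minus strand, lies before the RefSeq start but inside the gene as GENCODE M21 places it. These matches are letters in a window and not measured binding sites.

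The main comparison asked what KCL-HO-1i did on average, over tumours that received no chemotherapy, 5-FU or gemcitabine (here the KCL-HO-1i average, 15 libraries against 15). All 10 vessel genes had a positive log2 fold change, from 0.30 (*Flt1*) to 1.23 (*Tek*), with a median of 0.64, where the median over all genes was -0.00069 and 49.8% of genes were above 0. No vessel gene passed an adjusted p under 0.05 in the quasi-likelihood test of edgeR, where 8 genes (0.0586%) did. At an unadjusted p under 0.05 there were 5 of the 10 (*Pecam1*, *Cdh5*, *Tek*, *Eng* and *Plvap*), beside 23% of all genes. DESeq2 gave 1 call, *Tek*, with an adjusted p of 0.0351. Without the 3 libraries that stood apart, the median log2 fold change of the 10 genes was -0.023, 4 were above 0 and 6 below, and none had an unadjusted p under 0.05, beside 13.6% of all genes. The positive median of the average thus rested on 3 of the 15 libraries that received KCL-HO-1i. In bulk tumour RNA, a different number of endothelial cells and a different amount of RNA per cell cannot be told apart.

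*Tek*, the angiopoietin receptor, had the largest fitted change of the 10 in the KCL-HO-1i average. Its level in the vehicle tumours was 3.95, 4.29, 0.528, 5.60 and 4.02 CPM. In KCL-HO-1i tumours it was 4.88, 8.64, 14.9, 25.4 and 3.13, and in KCL-HO-1i/gemcitabine tumours 7.27, 46.4, 3.22, 4.82 and 11.4 CPM. The vehicle values lay close together apart from 1 low library, whereas both treated groups ran from the vehicle range to several times above it. In KCL-HO-1i/5-FU tumours *Tek* was 5.95, 7.42, 19.4, 3.04 and 2.27 CPM, again with 1 library far above the others. In 5-FU tumours it was 6.36, 4.46, 4.84, 2.85 and 10.9, and in gemcitabine tumours 2.37, 4.09, 1.01, 3.34 and 11.6 CPM. Every group overlapped vehicle. The log2 fold change of *Tek* in the KCL-HO-1i average was 1.23 ± 0.43 (SE; adjusted p = 0.0938 in edgeR), and the adjusted p was between 0.0347 and 1 over the alternatives that were run. Of the 15 libraries that received KCL-HO-1i, 9 were above the highest vehicle library, as were 3 of the 10 that received chemotherapy alone. It was still above 0 without the 3 libraries that stood apart, at 0.44 (adjusted p = 0.579 in edgeR).

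*Tie1*, the partner receptor of *Tek*, had smaller fitted changes. It was 8.64, 10.6, 5.10, 10.1 and 7.88 CPM in vehicle tumours and 8.01, 40.1, 8.34, 11.5 and 16.0 CPM in KCL-HO-1i/gemcitabine tumours. The groups overlapped, with 3 of the 5 treated tumours above the vehicle range. In the KCL-HO-1i average its log2 fold change was 0.52 ± 0.28 (SE; adjusted p = 0.269 in edgeR). It was -0.073 without the 3 libraries.

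*Kdr*, the main VEGF receptor, differed little between groups outside the 3 libraries. It was 10.4, 14.2, 15.1, 15.01 and 11.4 CPM in vehicle tumours and 6.31, 15.9, 11.9, 56.1 and 6.35 CPM in KCL-HO-1i tumours. In KCL-HO-1i/5-FU tumours it was 12.1, 9.49, 53.1, 9.88 and 6.89, and in KCL-HO-1i/gemcitabine tumours 11.6, 59.3, 9.17, 12.96 and 16.5 CPM. In each of these groups a single library was at 53.1 CPM or more while the other 4 lay at 16.5 CPM or less. In 5-FU tumours *Kdr* was between 7.17 and 19.9 CPM and in gemcitabine tumours between 8.001 and 15.5 CPM, around the vehicle values. The log2 fold change in the KCL-HO-1i average was 0.60 ± 0.33 with all libraries (SE; adjusted p = 0.283 in edgeR) and -0.29 without the 3 (adjusted p = 0.430).

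*Flt1*, the tightly binding VEGF receptor, had the smallest fitted change of the 10 in the KCL-HO-1i average on all 30 libraries, and the most negative one on 27. It was 10.2, 11.2, 19.96, 12.2 and 14.1 CPM in vehicle tumours and 7.39, 12.97, 11.05, 47.4 and 7.09 CPM in KCL-HO-1i tumours. The highest library in KCL-HO-1i/5-FU was at 37.3 CPM and in KCL-HO-1i/gemcitabine at 42.3 CPM, with the others at 16.9 CPM or less. These were the only 3 libraries given KCL-HO-1i above the vehicle range. The log2 fold change in the KCL-HO-1i average was 0.30 ± 0.30 (SE; adjusted p = 0.589 in edgeR) and -0.38 without the 3 libraries (adjusted p = 0.393).

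*Eng*, endoglin, a co-receptor for ligands of the TGF-beta family that is raised on proliferating endothelium, was above the highest vehicle library in 10 of the 15 tumours given KCL-HO-1i. It was 15.2, 16.3, 10.5, 20.01 and 13.8 CPM in vehicle tumours and 20.6, 23.8, 91.7, 20.4 and 11.2 CPM in KCL-HO-1i/5-FU tumours. The second group was mostly just above the first, with 1 library far above and 1 inside the vehicle range. In KCL-HO-1i tumours *Eng* was 13.2, 20.7, 21.4, 55.3 and 11.9, and in KCL-HO-1i/gemcitabine tumours 17.6, 85.0, 23.5, 14.6 and 30.2 CPM. With chemotherapy alone, 3 of 10 libraries were above the vehicle range, with 34.7 CPM as the highest in 5-FU and 34.4 CPM in gemcitabine. Both combinations had an unadjusted p under 0.05 against vehicle, with log2 fold changes of 1.14 ± 0.52 with 5-FU (SE; adjusted p = 0.253 in edgeR) and 1.17 ± 0.52 with gemcitabine (adjusted p = 0.208). In the KCL-HO-1i average it was 0.70 ± 0.30 (adjusted p = 0.159). On 27 libraries these 3 values were 0.32, 0.49 and 0.019, and none had an unadjusted p under 0.05.

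Of the junction molecules, *Cdh5* was the most even in vehicle tumours, at 17.4, 22.5, 17.9, 19.3 and 16.6 CPM. It was 16.4, 23.7, 26.6, 65.1 and 10.1 in KCL-HO-1i, 19.4, 18.4, 95.04, 18.1 and 12.5 in KCL-HO-1i/5-FU, and 16.2, 133, 14.1, 19.1 and 30.6 CPM in KCL-HO-1i/gemcitabine tumours. The medians of these groups were 23.7, 18.4 and 19.1 CPM, near the vehicle median of 17.9, while the means were 28.4, 32.7 and 42.6 against 18.8 CPM. *Pecam1*, which platelets and leukocytes also carry, was 21.3, 32.1, 18.2, 28.2 and 25.7 CPM in vehicle tumours. It was 24.2, 31.1, 42.6, 79.1 and 17.6 in KCL-HO-1i, 29.9, 31.5, 103, 20.8 and 17.7 in KCL-HO-1i/5-FU, and 29.2, 152, 24.7, 25.3 and 52.3 CPM in KCL-HO-1i/gemcitabine tumours. As for *Cdh5*, the groups overlapped and differed mainly in their highest library. The log2 fold change in the KCL-HO-1i average was 0.77 ± 0.33 for *Cdh5* (SE; adjusted p = 0.166 in edgeR) and 0.66 ± 0.29 for *Pecam1* (adjusted p = 0.168). In the fit on 27 libraries *Cdh5* was at -0.095 and *Pecam1* at 0.021.

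*Emcn*, *Plvap* and *Vwf* mark classes of vessel, *Emcn* capillaries and veins and *Plvap* the diaphragms of permeable vessels. *Plvap* was 12.9 to 26.5 CPM in vehicle tumours, and the 3 libraries that stood apart were at 44.5, 98.7 and 100.4 CPM. Another 2 libraries were above the lowest of these 3, gemcitabine replicate 5 at 46.5 and KCL-HO-1i/gemcitabine replicate 5 at 51.3 CPM. *Emcn* was 3.87 to 6.54 CPM in vehicle tumours and 13.4, 26.9 and 18.0 in the 3 libraries, against at most 11.7 CPM in the other 27. *Emcn* was also above the vehicle range in 5 of the 10 tumours given chemotherapy alone, the largest number among the vessel genes. *Vwf* was 2.44, 1.53, 0.704, 4.75 and 0.669 CPM in vehicle tumours and 5.19, 3.65, 6.15, 2.69 and 5.78 CPM in 5-FU tumours. The 5-FU values were the higher ones on the whole, but the groups overlapped, and the log2 fold change was 1.22 ± 0.78 (SE; adjusted p = 0.999 in edgeR). The log2 fold changes in the KCL-HO-1i average were 0.62 ± 0.29 for *Plvap* (adjusted p = 0.206), 0.48 ± 0.25 for *Emcn* (adjusted p = 0.246) and 0.68 ± 0.44 for *Vwf* (adjusted p = 0.376). On 27 libraries they were 0.053 for *Plvap*, -0.016 for *Emcn* and -0.029 for *Vwf*.

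**Figure D1:**
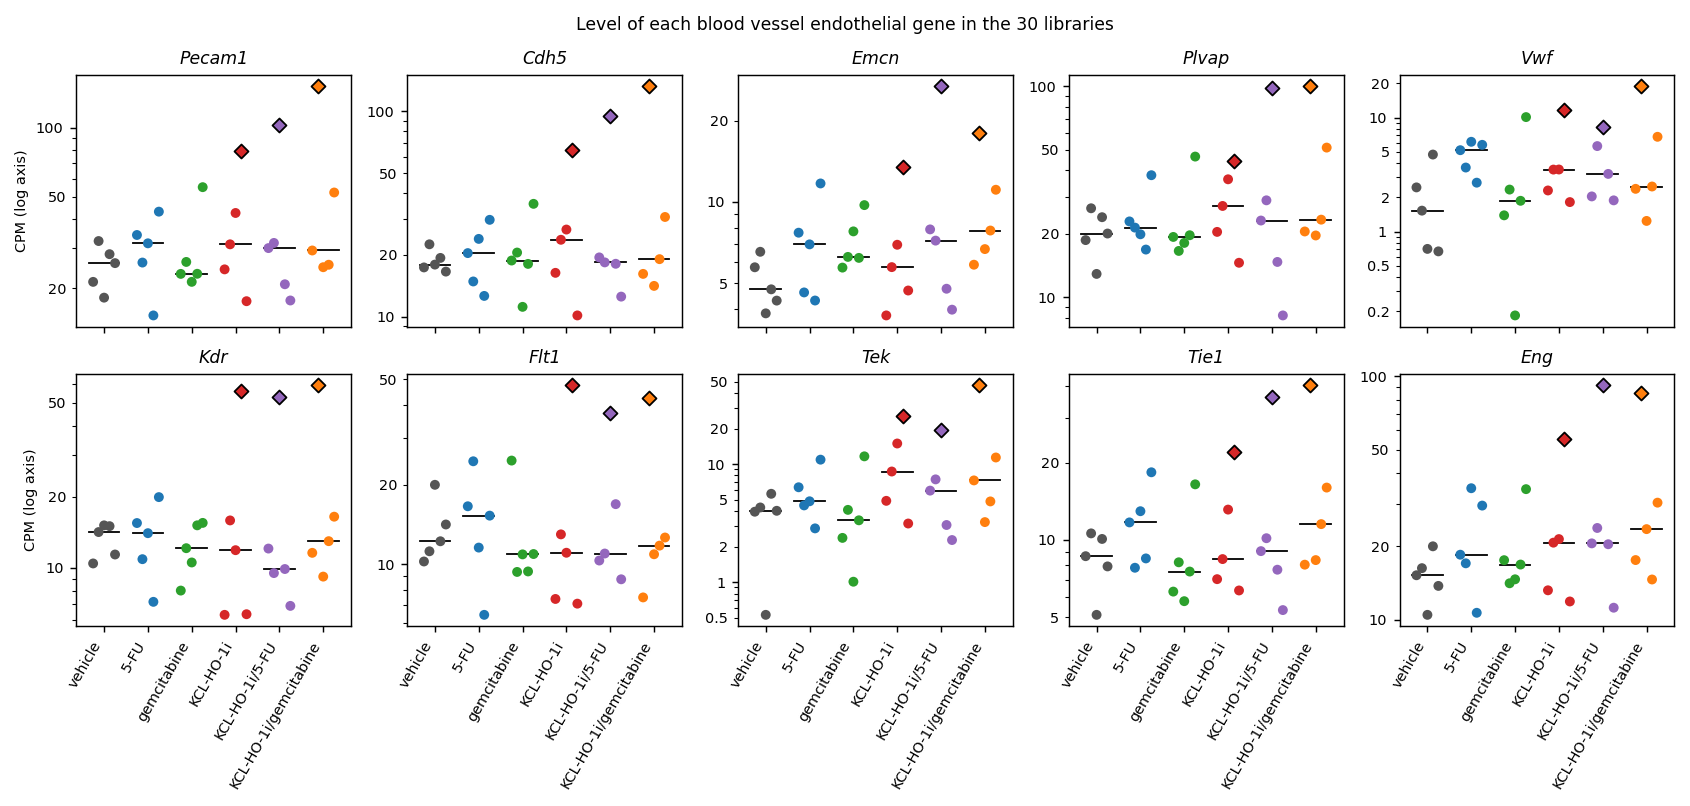
CPM (log axis) of each of the 10 vessel genes in every library, by group, with a line at the median of each group. Diamonds mark the 3 libraries that stood apart, which were the highest 3 of all 30 for 8 of the 10 genes. The groups overlapped for every gene, also with these 3 included.

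The groups were next set against vehicle one at a time, comparisons that all share the same 5 vehicle libraries. Neither chemotherapy alone moved a vessel gene past a threshold, adjusted or not. With 5-FU the 10 log2 fold changes were 0.029 to 1.22 with a median of 0.37, and 3.89% of all genes had an unadjusted p under 0.05. With gemcitabine they were -0.11 to 0.65 with a median of 0.24, and 3.83% of all genes had such a p. No gene at all passed the adjusted threshold in either comparison, or in those of the 3 groups given KCL-HO-1i against vehicle (0% in each).

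With KCL-HO-1i alone, 1 vessel gene (*Tek*, log2 fold change 1.63 ± 0.75, adjusted p = 0.495 in edgeR) had an unadjusted p under 0.05, as had 9.43% of all genes. With KCL-HO-1i/5-FU there were 2 (*Eng* and *Emcn*), beside 17.6% of all genes, and with KCL-HO-1i/gemcitabine 6 (*Pecam1*, *Tek*, *Eng*, *Emcn*, *Vwf* and *Plvap*), beside 19.8%. The median log2 fold change of the 10 genes was 0.57, 0.78 and 1.12 in these 3 comparisons, where the median over all genes was between -0.011 and 0.019. Both VEGF receptors had an unadjusted p over 0.05 in each. In KCL-HO-1i/gemcitabine the largest value was that of *Tek*, at 1.98 ± 0.75 (SE; adjusted p = 0.137 in edgeR), a 3.95-fold fitted change, and on 27 libraries it was 0.84 (adjusted p = 0.522). In KCL-HO-1i alone it was 1.09 on 27 libraries. On 27 libraries the medians were 0.10, -0.044 and 0.42, and a single vessel gene in KCL-HO-1i/gemcitabine (*Emcn*) kept an unadjusted p under 0.05. The limits of the study (log2 fold change above 0.6 with an unadjusted p under 0.05) were applied here to the edgeR fit, whereas the study used DESeq2. By these limits, 0 vessel genes were higher with 5-FU and 0 with gemcitabine, 1 with KCL-HO-1i, 2 with KCL-HO-1i/5-FU and 6 with KCL-HO-1i/gemcitabine, beside 1.19%, 0.71%, 6.59%, 7.49% and 10.2% of all genes. In the fit on 27 libraries 5.92%, 10.7% and 15.9% of all genes had such a p.

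**Figure D2:**
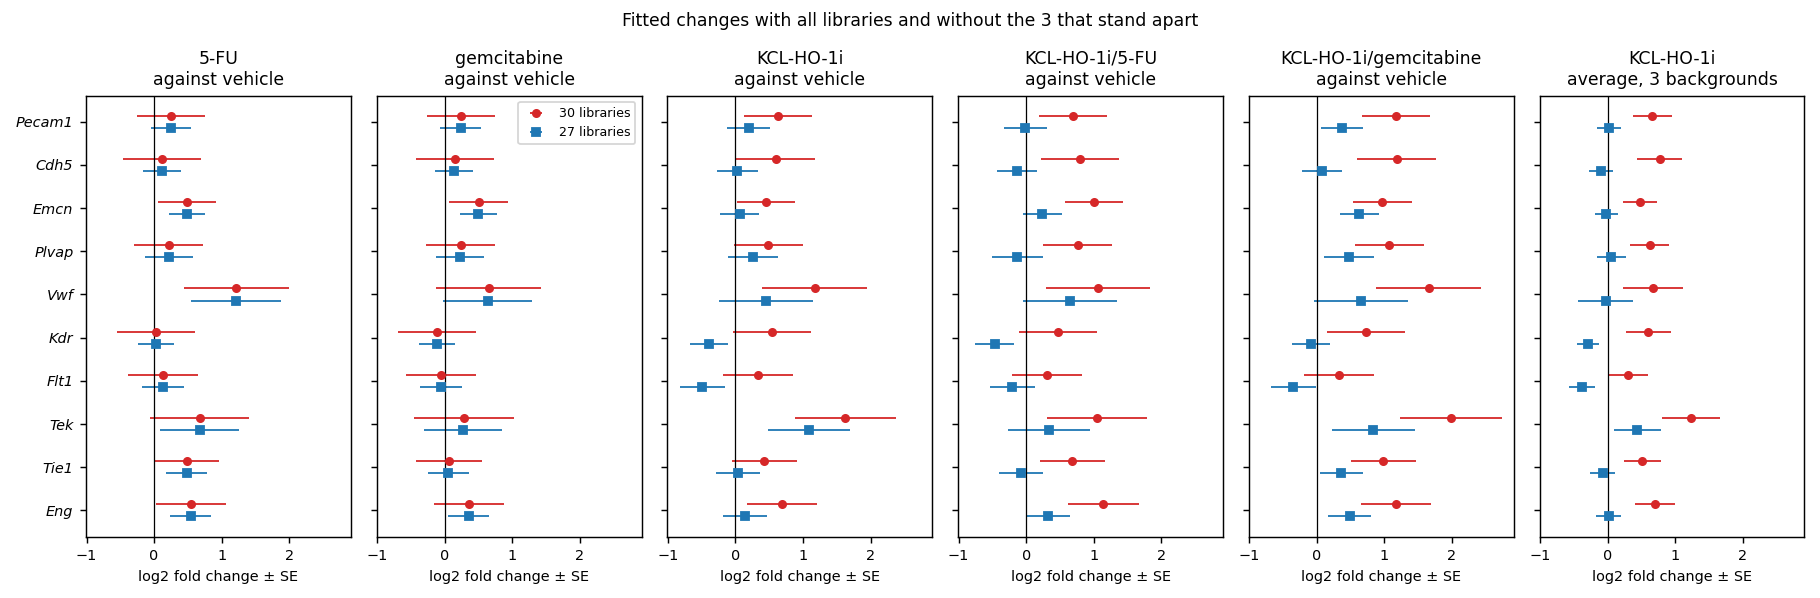
Log2 fold change ± SE of each vessel gene against vehicle in the 5 treated groups and in the KCL-HO-1i average, fitted on all 30 libraries (red circles) and on the 27 left without the 3 that stood apart (blue squares). In the average the red points lie between 0.30 and 1.23 and the blue points between -0.38 and 0.44, and the blue error bars are shorter.

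What KCL-HO-1i added to a chemotherapy was read from the combinations against the same chemotherapy alone. Against gemcitabine, KCL-HO-1i/gemcitabine had a median log2 fold change of 0.88 over the vessel genes, all 10 of them above 0 (50% of all genes), and *Tek* at 1.70 ± 0.75 was the only one with an unadjusted p under 0.05 (adjusted p = 0.333 in edgeR), beside 13.5% of all genes. On 27 libraries *Tek* was at 0.57 there (adjusted p = 0.727). Against 5-FU, KCL-HO-1i/5-FU had a median of 0.43 with 9 of 10 above 0 (53.3% of all genes) and none at an unadjusted p under 0.05, beside 11.4% of all genes. On 27 libraries all 10 vessel genes of the second comparison were below 0, from -0.56 to -0.22, where the median over all genes was -0.011. None had an unadjusted p under 0.05, beside 8.75% of all genes. That fit leaves out the highest KCL-HO-1i/5-FU library, which was picked for its vessel gene level. The first comparison had a median of 0.13 on 27 libraries. The combinations against KCL-HO-1i alone, and the interaction of KCL-HO-1i with either chemotherapy, gave no vessel gene at an unadjusted p under 0.05. Of all genes, 2.66% had such a p when KCL-HO-1i/gemcitabine was set against KCL-HO-1i and 16.9% when KCL-HO-1i/5-FU was, and 8.53% and 1.34% for the interactions with 5-FU and gemcitabine. No gene passed the adjusted threshold in any of these comparisons (0% in each). The interaction estimates of the 10 genes had medians of -0.13 with 5-FU and 0.21 with gemcitabine and SE of 0.61 to 1.08, so that differences in either direction were not resolved with 5 tumours a group.

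The vessel genes varied together from tumour to tumour. Pairs of other genes were not counted, so the counts of pairs given here have no comparison. Over the 27 libraries without those that stood apart, 44 of the 45 pairs had a positive Pearson r of log2 CPM, with a median of 0.66, and 34 had an adjusted p under 0.05 in the permutation test. The highest was *Pecam1* with *Plvap* (r = 0.91 at p = 1e-05, the smallest the permutations can give, and Spearman rho = 0.89). *Flt1* was the exception by this measure, with a median r of 0.12 with the other 9 genes and its lowest value with *Tek* (r = -0.12, adjusted p = 0.585 by permutation). *Kdr*, the other VEGF receptor, was the gene it followed most, at r = 0.37. Deviations from the group means gave a similar spread, with a median r of 0.71. With all 30 libraries, r ran from 0.44 to 0.96 with a median of 0.85 and all 45 pairs passed, and leaving out the 2 libraries farthest from the median of the first gene of a pair brought the median to 0.77 and the lowest to 0.11. Part of the pooled values thus rests on the libraries that stood apart, and without them none of the 9 pairs with *Flt1* passed by Pearson r. By Spearman rho over the 27 libraries 38 of the 45 pairs passed, among them *Flt1* with *Kdr* (rho = 0.44, adjusted p = 0.0301 by permutation) and with *Cdh5* (rho = 0.40, adjusted p = 0.0445 by permutation).

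**Figure D3:**
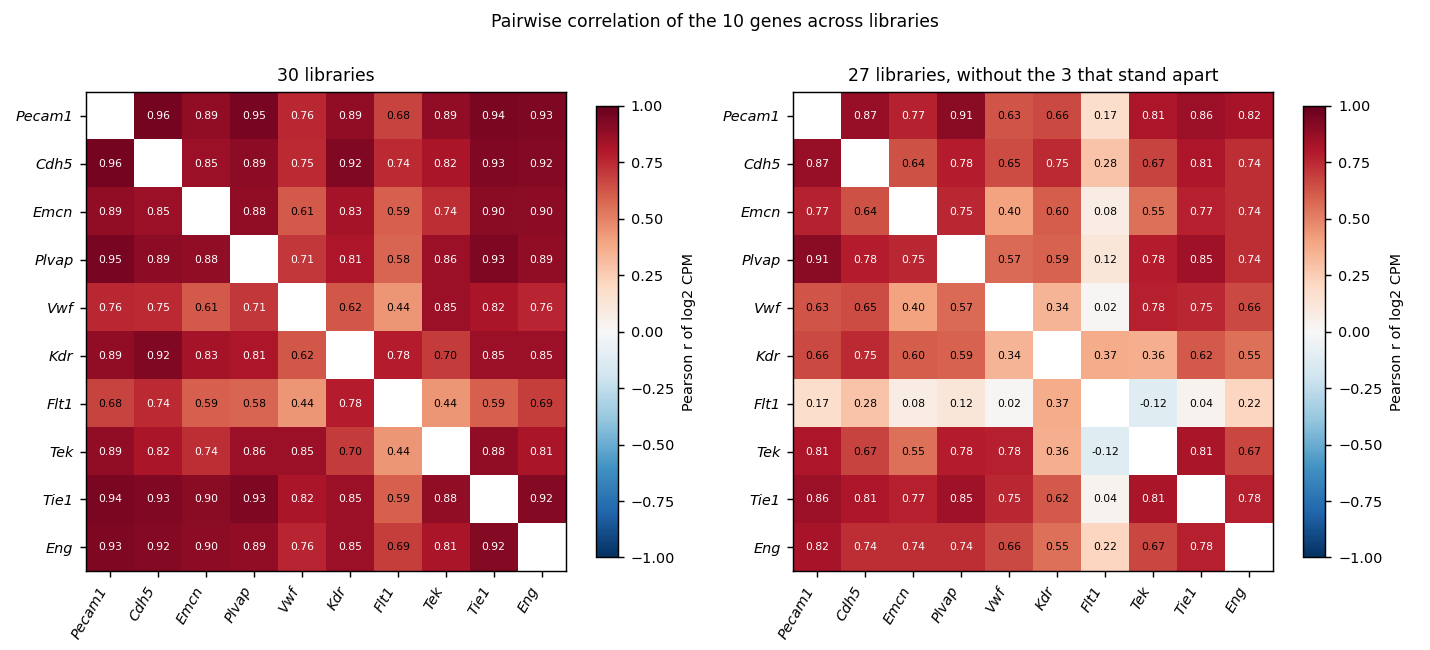
Pearson r of log2 CPM for each pair of the 10 vessel genes over all 30 libraries (left) and over 27 libraries (right). The row of Flt1 goes from between 0.44 and 0.78 on the left to between -0.12 and 0.37 on the right, while the other pairs are at 0.34 or above on the right.

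The 3 libraries that stood apart were high in every vessel gene, but not to the same degree. Against the median of the other 27 libraries, they were 4.34-fold to 10.4-fold higher for *Tek*, 3.54-fold to 7.23-fold for *Cdh5* and 4.47-fold to 5.00-fold for *Kdr*. The folds were lower for *Emcn*, 2.16-fold to 4.33-fold, and *Plvap*, 2.17-fold to 4.91-fold. KCL-HO-1i replicate 4 had the lowest level of the 3 in 6 genes (*Pecam1*, *Cdh5*, *Emcn*, *Plvap*, *Tie1* and *Eng*) and the highest in *Flt1*. The other 27 libraries also varied, and gemcitabine replicate 5, KCL-HO-1i/gemcitabine replicate 5 and 5-FU replicate 5 followed the 3 in summed level, at 246, 239 and 222 CPM.

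Other endothelial genes were counted from lists of known genes. Of 23 further surface and junction genes that were tested, all 23 had a positive log2 fold change in the KCL-HO-1i average (median 0.72), where 49.8% of all genes did, and 16 had an unadjusted p under 0.05, beside 23% of all genes, with none past the adjusted threshold. The lowest p were those of *S1pr1*, a receptor of sphingosine 1-phosphate (1.24 ± 0.30, adjusted p = 0.0525 in edgeR), *Cldn5*, a tight junction protein (1.60 ± 0.42), and *Cd36*, a fatty acid transporter that adipocytes and macrophages also make (2.69 ± 0.80). Without the 3 libraries the median was 0.082, with 16 of 23 above 0 and 4 at an unadjusted p under 0.05, a share near the 13.6% of all genes. Of 14 transcription factors tested, 11 were above 0 and 9 had an unadjusted p under 0.05 (23% of all genes), led by *Lyl1*, *Fli1* and *Klf2*, which blood cells make as well. Without the 3 libraries 4 of 13 had such a p (13.6% of all genes), with a median of 0.15. The summed level of both lists was above every other library in the 3 that stood apart.

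The ligands of these receptors were counted from a further list. *Vegfa*, the main ligand of *Kdr*, had a log2 fold change of -0.22 ± 0.39 in the KCL-HO-1i average (SE; adjusted p = 0.781 in edgeR), and *Angpt2*, the ligand that loosens vessels through *Tek*, -0.099 ± 0.35. *Pgf*, a ligand of *Flt1*, was lower at -0.72 ± 0.28 (adjusted p = 0.132), whereas *Angpt1*, the stabilising ligand of *Tek*, was at 0.74 ± 0.32 (adjusted p = 0.164). The VEGF co-receptors *Nrp2* (1.05 ± 0.32, adjusted p = 0.0662) and *Nrp1* (1.01 ± 0.39, adjusted p = 0.123) and the lymphatic ligand *Vegfd* (1.92 ± 0.70, adjusted p = 0.104) had the lowest p of the list. The list also held *Flt4*, the lymphatic VEGF receptor, and *Ptprb*, the phosphatase named above. Of its 11 tested genes, 7 had an unadjusted p under 0.05, 6 higher (*Ptprb* among them) and 1 lower, beside 23% of all genes, and on 27 libraries 2 had one, beside 13.6%. None passed the adjusted threshold.

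Of 16 Notch and tip cell genes, 3 had an unadjusted p under 0.05 (*Heyl*, *Jag1* and *Jag2*), no larger a share than the 23% of all genes, with a median log2 fold change of 0.12 over the list, and none passed the adjusted threshold. *Esm1* and *Apln*, genes of sprouting tip cells, were at -0.71 ± 0.38 and -0.69 ± 0.37, and *Dll4* was at 0.16 ± 0.20. The summed level of this list in the 3 libraries that stood apart, 492 to 696 CPM, lay inside the range of the other 27, 461 to 1122 CPM. A large part of this sum was *Hey1* and *Notch1*, with means of 345 and 206 CPM in vehicle tumours. *Dll4* had a mean of 11.8 and *Esm1* of 6.56 CPM there, so the sum says little on the scarcer genes of the list. Of 6 tested lymphatic genes, 1 had an unadjusted p under 0.05, again no larger a share than that of all genes (*Pdpn*, which fibroblasts and macrophages also make, 1.46 ± 0.41), and the defining lymphatic factor *Prox1* was at -0.58 ± 0.34. Of 9 tested leukocyte adhesion genes of endothelium, 4 had an unadjusted p under 0.05, beside the same 23%, led by *Ackr1*, a gene of venules (1.93 ± 0.62), *Vcam1* (1.04 ± 0.36) and *Icam1* (0.80 ± 0.28), and none had one on 27 libraries, where 2 of the 16 Notch and tip cell genes and 2 of the 6 lymphatic genes did, beside 13.6% of all genes.

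Markers of other cells moved with the vessel genes in the same libraries. The summed level of 12 luminal epithelium genes, the cells that carry the tumour, was 3112 to 4342 CPM in the 3 libraries that stood apart and 4192 to 7211 CPM in the other 27. All 12 were tested in the average and 2 had an unadjusted p under 0.05, *Cdh1* lower and *Foxa1* higher, and on 27 libraries 1 had one. The 12 fibroblast genes summed to 3351 to 14398 CPM in the 3 and 131 to 4448 CPM in the 27, and the 12 pericyte and smooth muscle genes to 581 to 1273 and 146 to 1279 CPM. A large part of the pericyte sum was *Notch3*, with a mean of 124 CPM in vehicle tumours. *Des*, of the same list, had a mean of 78.9 CPM over the libraries given KCL-HO-1i and 13.8 CPM without the 3. Adipocyte genes (12) summed to 315 CPM in KCL-HO-1i/5-FU replicate 3 and to 5528 and 6720 CPM in the other two, against 110 to 1642 CPM in the 27. Skeletal muscle genes (12) summed to 9.42 CPM in the same library and to 4890 and 15015 CPM in the other two, against 5.38 to 1926 CPM in the 27. KCL-HO-1i/5-FU replicate 3 thus held high vessel gene levels with adipocyte and muscle markers inside the range of the 27. By group, the adipocyte sum was 170.0 to 534 CPM in vehicle, 110.4 to 338 in 5-FU, 110.1 to 1396 in gemcitabine, 182 to 5528 in KCL-HO-1i, 148 to 315 in KCL-HO-1i/5-FU and 114 to 6720 CPM in KCL-HO-1i/gemcitabine tumours. The fibroblast sum was 131 to 1180 CPM in vehicle, 567 to 1557 in 5-FU, 465 to 4110 in gemcitabine, 524 to 4448 in KCL-HO-1i, 241 to 7256 in KCL-HO-1i/5-FU and 836 to 14398 CPM in KCL-HO-1i/gemcitabine tumours. In the average all 12 adipocyte, all 12 muscle and all 12 fibroblast genes had a positive change with an unadjusted p under 0.05, and 0, 0 and 2 had one without the 3 libraries. Of the 12 pericyte and smooth muscle genes, 6 had such a p with all libraries and 5 on 27. Of all genes, 23% and 13.6% had one in these fits.

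For macrophage genes the values with and without the 3 libraries lay closer together, a difference between lists that was not tested. Of 11 macrophage genes, 9 had an unadjusted p under 0.05 in the KCL-HO-1i average, with a median log2 fold change of 0.79, and without the 3 libraries 7 still had one, with a median of 0.70, beside 23% and 13.6% of all genes. None passed the adjusted threshold in the full fit. The summed macrophage level was 1049 to 2469 CPM in the 3 and 246 to 1990 CPM in the 27. By group it was 246 to 1114 CPM in vehicle, 368 to 1667 in 5-FU, 402 to 1326 in gemcitabine, 727 to 1983 in KCL-HO-1i, 827 to 2469 in KCL-HO-1i/5-FU and 907 to 2009 CPM in KCL-HO-1i/gemcitabine tumours. Platelet genes, which bear on *Pecam1* and *Vwf*, summed to 68.2 to 131 CPM in the 3 and 9.06 to 157 CPM in the 27, with 3 of 10 passing the filter, and *Ppbp* at 62 counts in all libraries together. Most of this sum was *Itgb3*, with a mean of 79.9 CPM over the libraries without KCL-HO-1i. *Pf4* had 2.29 and *Itga2b* 1.69 CPM there, so the sum says little on these 2 genes. *Pf4*, which macrophages can also make, was the only one of the 3 tested platelet genes with an unadjusted p under 0.05 (2.07 ± 0.46, adjusted p = 0.0525 in edgeR). Its mean over the libraries given KCL-HO-1i was 9.63 CPM, and 5.89 CPM without the 3 that stood apart. Red blood cell genes, a sign of blood in the sample, gave a median of -0.51 in the average with 0 of 5 tested genes at an unadjusted p under 0.05. On 27 libraries the median was -1.18 with 2 of 5, beside 23% and 13.6% of all genes in these fits. In KCL-HO-1i/gemcitabine against vehicle, the comparison with the most vessel genes at such a p, 4 of the 5 had one, beside 19.8% of all genes. These were all lower, and the median was -3.19. Their part in the vessel gene values was not tested.

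The vessel gene values of the KCL-HO-1i average were also fitted with the mean level of a marker list as a covariate. With the adipocyte list, 4 of the 10 were above 0 and the median was -0.044, with the macrophage list 0 of 10 and -0.17, and with the fibroblast list 1 of 10 and -0.22. No vessel gene had an unadjusted p under 0.05 in these 3 fits, beside 10.2%, 3.32% and 6.14% of all genes. With the luminal epithelium list all 10 stayed above 0 with a median of 0.51, and *Tek* alone had an unadjusted p under 0.05, beside 21.9% of all genes. With the unexplained number in the library names as a term, all 10 were above 0 with a median of 0.71 and none had an unadjusted p under 0.05, beside 10% of all genes. Only vehicle replicate 1 shared its number with a treated library, so that fit hardly separates the number from treatment. The share of all genes above 0 was not counted in any of these fits, so the counts above 0 have no comparison. The marker lists share libraries with the vessel genes and with the treatment, and their part in the vessel gene values was not tested beyond these fits.

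**Figure D4:**
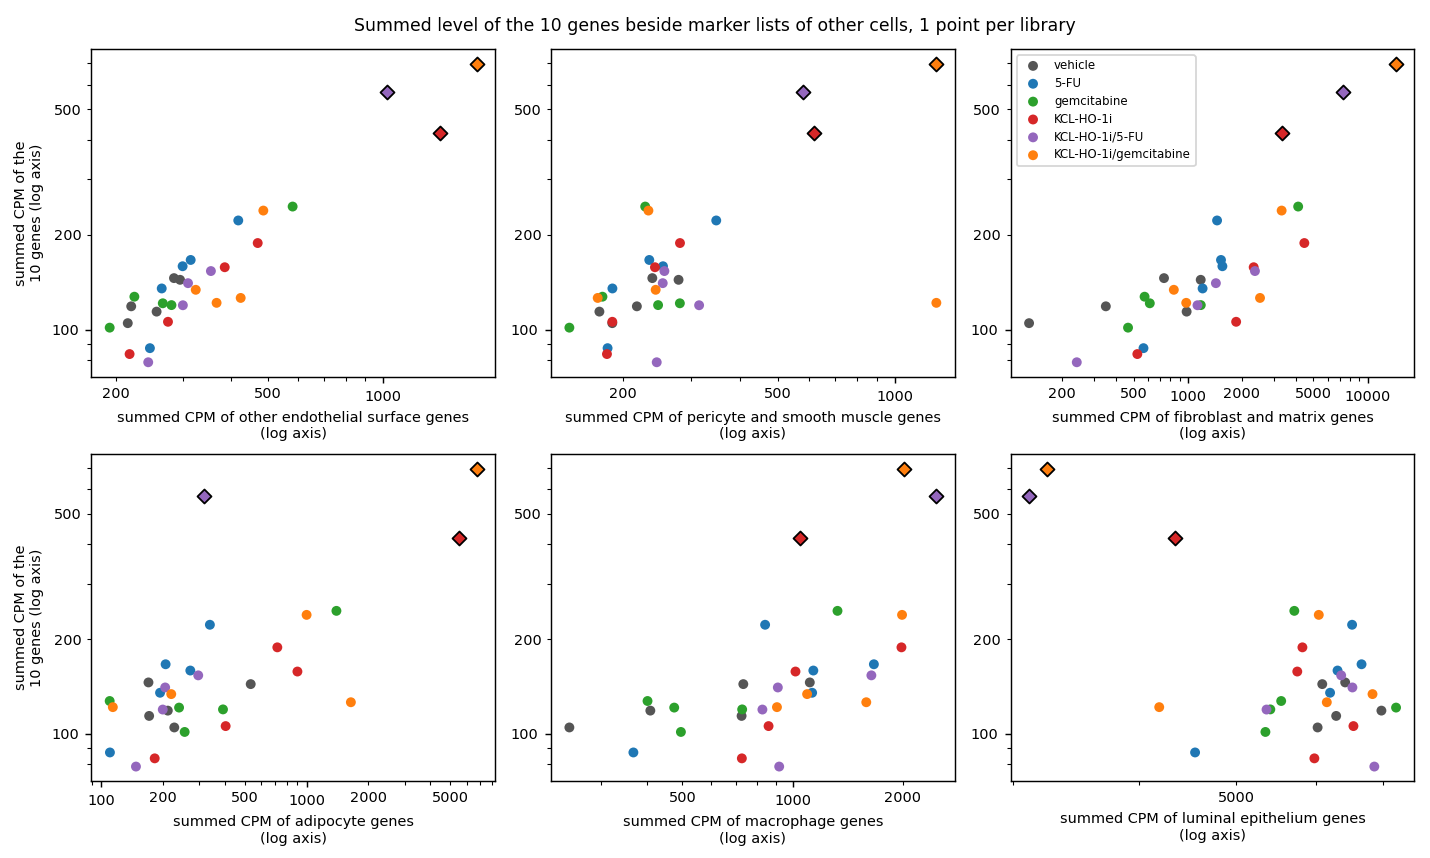
Summed CPM of the 10 vessel genes against the summed CPM of 6 marker lists (both axes log), 1 point per library, coloured by group, with diamonds for the 3 libraries that stood apart. The diamonds lie above all other points, at the right for other endothelial surface genes (1027 to 1759 CPM) and at the left for luminal epithelium genes (3112 to 4342 CPM).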

How the data were processed

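RNA sequencing of 30 mammary tumours was analysed from the deposited table of expected counts (estimated reads per gene). Per the labels and the study's methods, reads were assessed by the authors in FastQC 0.11.9, aligned to mm10 in STAR 2.7.9a and quantified in Salmon 1.9.0, and transcripts were summed to genes. The annotation release is not given in the sources used here. The library kit keeps strand, but the counting setting is not stated. The methods speak of TPM counts, but 38.0% of the deposited expected counts are not whole and their totals differ between libraries.

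Counts were rounded to whole numbers. All genes were fitted in R 4.3.3 with the quasi-likelihood test of edgeR 4.0.16 (TMM, filterByExpr with a minimum count of 10, 6 group means, robust dispersion), with Benjamini-Hochberg adjustment over 13663 genes. The SE is the log2 fold change divided by the square root of F. The KCL-HO-1i average is the mean of its 3 differences, from vehicle, 5-FU and gemcitabine. CPM use effective library sizes, and log2 CPM a prior count of 2. A floor of 3 counts is 0.215 to 0.302 CPM and covers counting error only. Correlations used 100000 permutations in Python with numpy 2.4.6, adjusted over 45 pairs.

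Groups were taken from the labels. Samples come from separate mice, and p-values measure the spread between these mice. The vessel genes were named in every comparison. Of each other list the 3 genes with the lowest p in the KCL-HO-1i average were named, and any further gene was chosen after its values were seen. The 10 genes and the lists were chosen with earlier results of these data known. Alternatives used limma 3.58.1 and DESeq2 1.42.0, other filters and scalings, covariates, a replicate block and each library left out. The fit without the 3 libraries that stood apart was added after seeing the data, and these libraries were picked for their high vessel gene levels. Fits were also run on simulated counts, drawn with independent genes and with no library that stands apart. That run does not bear on results that rest on the 3 libraries.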

Additional observations from a re-analysis of the deposited data

Results flagged for a closer look

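Of 60 sets of 5 libraries (10 vessel genes in 6 groups), 26 had a highest library farther from its neighbour than Dixon's test allows at the 95% level. For normally distributed values chance flags about 1 in 20. The test was run on CPM, not on log values, and CPM need not follow that distribution, so this rate is no measure here. The 10 genes are correlated, so these are not 26 separate events. Of them, 19 fell in the 3 libraries that stood apart, which were picked for high vessel gene levels. In gemcitabine replicate 5 the highest value of its group was far above the others for *Pecam1* (55.1 CPM), *Tie1* (16.5 CPM), *Eng* (34.4 CPM), *Vwf* (10.1 CPM) and *Plvap* (46.5 CPM). In KCL-HO-1i/5-FU replicate 3 the highest value of its group was far above the others for *Pecam1* (103 CPM), *Cdh5* (95.04 CPM), *Kdr* (53.1 CPM), *Flt1* (37.3 CPM), *Tie1* (36.0 CPM), *Eng* (91.7 CPM), *Emcn* (26.9 CPM) and *Plvap* (98.7 CPM). In KCL-HO-1i/gemcitabine replicate 2 the highest value of its group was far above the others for *Pecam1* (152 CPM), *Cdh5* (133 CPM), *Kdr* (59.3 CPM), *Flt1* (42.3 CPM), *Tek* (46.4 CPM), *Tie1* (40.1 CPM) and *Eng* (85.0 CPM). In KCL-HO-1i replicate 4 the highest value of its group was far above the others for *Kdr* (56.1 CPM), *Flt1* (47.4 CPM), *Eng* (55.3 CPM) and *Vwf* (11.7 CPM). In gemcitabine replicate 1 the highest value of its group was far above the others for *Flt1* (24.7 CPM). In 5-FU replicate 5 the highest value of its group was far above the others for *Plvap* (37.9 CPM). All 26 were high values and none was a low one. The part of treatment, of tumour composition and of the sampled piece of tumour in these values was not tested.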

How the results depend on the processing

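No vessel gene was called in most fits, so the log2 fold changes below are uncalled values whose sign changed, and the counts are of vessel genes with an unadjusted p under 0.05. RLE scaling, no filter and a mean count of at least 50 moved none of these counts by over 1.5 times and turned no sign, and 45 of 45 pairs stayed positive and past the threshold with a prior count of 0.5 and with RLE. DESeq2 called 1 vessel gene in the KCL-HO-1i average (*Tek*, 1.25, adjusted p = 0.0351), as did edgeR without gemcitabine replicate 5 (1.46, adjusted p = 0.0347). The cause of these changes was not tested. With limma-voom and sample weights the counts were 1 for 5-FU, 0 each for KCL-HO-1i and its 5-FU combination, 3 for KCL-HO-1i/gemcitabine and 0 for the KCL-HO-1i average. For KCL-HO-1i the sign changed in Kdr -0.22 and Flt1 -0.23. In KCL-HO-1i/5-FU the sign changed for Kdr -0.21, Flt1 -0.035 and Plvap -0.052. Below 0 for KCL-HO-1i/gemcitabine were Flt1 -0.15. For the KCL-HO-1i average the sign changed in Kdr -0.094 and Flt1 -0.20. With only the groups compared in the fit the counts were 1 for 5-FU and 1 for KCL-HO-1i/5-FU. With the unexplained number in the library names as a term the counts were 0 each for KCL-HO-1i and its 5-FU combination, 0 for KCL-HO-1i/gemcitabine and 0 for the KCL-HO-1i average. Of the vehicle libraries, only replicate 1 shared its number with a treated library, KCL-HO-1i/gemcitabine replicate 5. Differences from vehicle in this fit rest on that link, so number and treatment are hardly separated and the sign changes cannot be read. In 5-FU the sign changed for Cdh5 -0.39, Kdr -0.52, Flt1 -1.46, Eng -0.38 and Vwf -0.14. Below 0 for gemcitabine were Pecam1 -0.35, Cdh5 -0.59, Tek -0.93, Tie1 -0.32, Eng -0.94 and Vwf -1.92. For KCL-HO-1i the sign changed in Cdh5 -0.21, Kdr -0.41, Flt1 -0.68 and Eng -0.14. In KCL-HO-1i/5-FU the sign changed for Kdr -0.021 and Flt1 -0.35. Without the 3 libraries that stood apart the counts were 0 each for KCL-HO-1i and its 5-FU combination, 1 for KCL-HO-1i/gemcitabine and 0 for the KCL-HO-1i average. Below 0 for KCL-HO-1i were Kdr -0.39 and Flt1 -0.49. For KCL-HO-1i/5-FU the sign changed in Pecam1 -0.011, Cdh5 -0.13, Kdr -0.47, Flt1 -0.20, Tie1 -0.077 and Plvap -0.13. In KCL-HO-1i/gemcitabine the sign changed for Kdr -0.089 and Flt1 -0.35. Below 0 for the KCL-HO-1i average were Cdh5 -0.095, Kdr -0.29, Flt1 -0.38, Tie1 -0.073, Emcn -0.016 and Vwf -0.029. With the adipocyte list as a covariate no vessel gene had such a p in the KCL-HO-1i average. For the KCL-HO-1i average the sign changed in Pecam1 -0.036, Cdh5 -0.090, Kdr -0.24, Flt1 -0.24, Tie1 -0.053 and Vwf -0.23. With the macrophage list no vessel gene had such a p in the KCL-HO-1i average. In the KCL-HO-1i average the sign changed for Pecam1 -0.19, Cdh5 -0.15, Kdr -0.23, Flt1 -0.069, Tek -0.027, Tie1 -0.29, Eng -0.15, Emcn -0.16, Vwf -0.45 and Plvap -0.28. With the luminal epithelium list 1 vessel gene had such a p in the KCL-HO-1i average, and no value changed sign. With the fibroblast list no vessel gene had such a p in the KCL-HO-1i average. Below 0 for the KCL-HO-1i average were Pecam1 -0.18, Cdh5 -0.23, Kdr -0.28, Flt1 -0.22, Tie1 -0.24, Eng -0.13, Emcn -0.11, Vwf -0.27 and Plvap -0.28.

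Leaving out each library in turn, the calls at an adjusted p ranged from 0 to 1 in the KCL-HO-1i average and stayed at 0 in the other 11 comparisons. The counts at an unadjusted p ranged from 0 to 1 for 5-FU, 0 to 0 for gemcitabine, 0 to 2 for KCL-HO-1i with no chemotherapy, 0 to 2 for KCL-HO-1i/5-FU, 0 to 8 for KCL-HO-1i/gemcitabine and 1 to 7 for the KCL-HO-1i average. The 0 of KCL-HO-1i/gemcitabine came without its replicate 2, and the average had 1 when any single one of the 3 libraries that stood apart was left out and 3 without 5-FU replicate 4. The count was 0 for KCL-HO-1i without vehicle replicate 1, 2, 3 or 5, or its own replicate 3 or 4, and 0 for KCL-HO-1i/5-FU without vehicle replicate 3 or 5 or its own replicate 3. The correlated pairs ranged from 43 to 45. Log2 fold changes that changed sign had these ranges. For 5-FU it was Cdh5 -0.060 to 0.24, Kdr -0.15 to 0.19, Flt1 -0.12 to 0.32 and Plvap -0.0096 to 0.33. For gemcitabine it was Pecam1 -0.097 to 0.34, Cdh5 -0.12 to 0.31, Kdr -0.20 to 0.0077, Flt1 -0.42 to 0.12, Tek -0.44 to 0.53, Tie1 -0.28 to 0.18, Vwf -0.48 to 1.24 and Plvap -0.14 to 0.34. For KCL-HO-1i it was Kdr -0.39 to 0.75 and Flt1 -0.50 to 0.52. For KCL-HO-1i/5-FU it was Pecam1 -0.0068 to 0.88, Cdh5 -0.13 to 1.01, Kdr -0.46 to 0.67, Flt1 -0.21 to 0.49, Tie1 -0.073 to 0.89 and Plvap -0.12 to 1.01. For KCL-HO-1i/gemcitabine it was Kdr -0.089 to 0.89 and Flt1 -0.35 to 0.51.

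Replicate numbers are shared between groups in the labels, but samples with the same number did not deviate together (mean r = 0.0028 over 75 pairs of libraries, 22 over 0.1), so the numbers were not taken as pairs. A fit with the replicate number as a block gave counts of 0 in KCL-HO-1i/5-FU, 2 in KCL-HO-1i/gemcitabine and 1 in the average, and moved *Flt1* for gemcitabine to 0.0035. Libraries held at least 10067577 counts, and depth limits *Vwf* and *Tek* most, with as few as 2 and 6 counts in a library.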
